A study of Caenorhabditis elegans with 6 samples.

Results

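This account concerns the late-named microRNAs (miRNAs) of Caenorhabditis elegans in the adult gonad, meaning the rows of the count files that carry a number of 1000 or more. Members were taken by name alone, with any letter or copy suffix, and 13 rows were left out: mir-1018, the lettered mir-2208 and mir-2209 rows, mir-2220, mir-4807 to mir-4810b and mir-4923b. This gave 109 of 253 rows, with 96 distinct numbers. The comparison rows were the 58 miRNAs numbered up to 90, called low-numbered here. The 6 libraries held small RNA from the gonads of adult N2 worms, 3 from males and 3 from hermaphrodites. N2 is the wild-type laboratory strain, and the labels name no allele or agent for either sex. In hermaphrodites the adult gonad holds oocytes and sperm stored from the larval stage, whereas males make only sperm. The label gives the cell type as germline, although an isolated gonad also holds somatic gonad cells.

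A miRNA is an RNA of about the length of a short oligonucleotide that is cut from a hairpin, first by Drosha with its partner Pasha and then by Dicer, and guides an Argonaute protein to messenger RNAs. Names are numbered in the order of registration. In this species the low numbers went largely to miRNAs abundant enough to be cloned from whole worms, and the high numbers to hairpins found later by deep sequencing or prediction. Some of the latter are mirtrons, short introns that splicing releases as a hairpin and that therefore do not need Drosha. For most of the late-named genes no function is known well enough to be stated here, so the members are ordered by abundance, sex difference and position.

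Library totals ran from 2268159 to 2621478 counts in hermaphrodites and from 245399 to 597166 in males, so depth and sex could not be told apart. The limit allowed by a count of 0, taken as 3 counts, stood for 1.14 to 1.32 CPM (counts scaled by the library total) in hermaphrodites and for 5.02 to 12.2 CPM in males. Such limits cover counting error only. Nothing says that the 3 samples of a sex came from separate isolations, so p-values measure the spread between these samples, which may be technical. Male replicate 3 was the smallest library and stood apart from the other males over the whole profile. The chi-square between its counts and those of male replicates 1 and 2 was 91056 and 79985. Between male replicates 1 and 2 it was 2679. Low-numbered rows held 54.5% of the counts of male replicate 3, against 64.7% and 64.5% in male replicates 1 and 2. For several members, values without male replicate 3 are given. As a check of the labels, the oocyte and embryo miRNAs mir-35 to mir-42 summed to between 202495 and 343606 scaled CPM in hermaphrodites and to between 390 and 449 in males. Scaled CPM are CPM after scaling between libraries by trimmed means (TMM). The 4 somatic markers (muscle mir-1, intestine mir-60, glial and hypodermal mir-228, neuronal lsy-6) summed to between 6055 and 8267 scaled CPM in hermaphrodites and to between 10611 and 16607 in males. The 4 did not move together. Muscle mir-1 was lower in males (1359 to 2520 scaled CPM in hermaphrodites, 333 to 1242 in males), and mir-228, which made up most of the sum, was higher (3762 to 5201 against 8246 to 16048). The ranges of mir-60 overlapped (351 to 540 against 220 to 1452), and those of lsy-6 did not (4.44 to 6.5 against 6.66 to 28). None of the 4 was at 0 in any library, and their part in the results was not tested.

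The late-named miRNAs kept here were rare in both gonads. This does not hold for every row numbered 1000 or more. The left-out mir-2209a was the highest of all 253 rows in male replicates 1 and 2, with 17.4% and 18.3% of their counts. Of the 109 rows, 51 had no count in any library, 24 had 1 to 3 counts over all 6 libraries, and 16 reached 100 counts in all. The median row had 1 count over the 6 libraries, against 4180 for the low-numbered rows, of which 4 of 58 had no count. Only 19 late-named rows were counted in every library. In bulk samples, fewer cells of a type and less RNA per cell cannot be told apart.

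**Figure D1:**
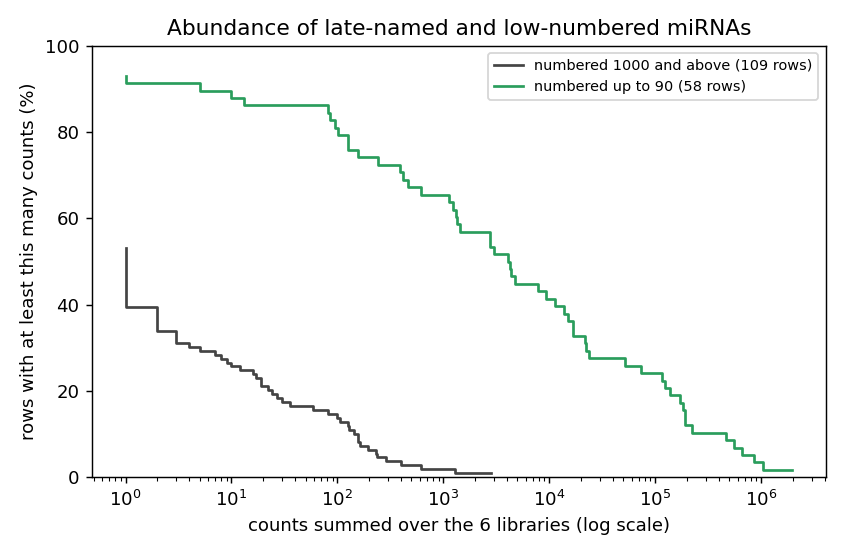
Percent of rows (vertical axis) with at least a given number of counts summed over the 6 libraries (horizontal axis, log scale), for the 109 late-named and the 58 low-numbered rows. The late-named curve starts at 53% of rows, since 51 of 109 had no count, and ends at the 2819 counts of mir-4936.

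When detection meant 10 CPM or more in 2 or 3 libraries of a sex, 12 late-named miRNAs were detected in hermaphrodite and 18 in male gonads, 11 of them in both. Among low-numbered rows 47 and 45 of 58 were detected. Detection of the late-named rows was thus 11% and 16.5%, against 81.0% and 77.6%. The only late-named row detected in hermaphrodites alone was mir-8196b. The 7 detected in males alone were mir-1819, mir-1820, mir-1821, mir-1822, mir-2210, mir-2221 and mir-4925. In male libraries 10 CPM stood for few reads, and in male replicate 3 for fewer than 3. Male raw counts were 8, 9 and 1 for mir-2221 and 9, 7 and 0 for mir-4925. For mir-1820 they were 20, 20 and 4, against 24, 17 and 15 in hermaphrodites. Among all 253 rows, 6 were detected in hermaphrodites alone and 30 in males alone by the same criterion. The order of the sexes depended on depth and on the criterion. If 10 raw counts were asked for instead of 10 CPM, 17 late-named rows were detected in hermaphrodites and 14 in males. When each library was taken down to 245399 counts, the expected number of late-named rows with a count was 20.8 ± 0.772 (SD, n = 3) in hermaphrodites and 27.6 ± 1.42 (SD, n = 3) in males. At full depth these means were 35.3 and 31.0 rows. For the low-numbered rows the expected numbers were 49.7 and 48.2.

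One miRNA held a large part of all late-named counts. In every library the most abundant member was mir-4936, annotated on chromosome III outside protein-coding genes. It had 877, 719 and 583 raw counts in hermaphrodite replicates 1 to 3 and 228, 218 and 194 in male replicates 1 to 3. This was 39.1% ± 4.77 (SD, n = 3) of late-named counts in hermaphrodites and 34.0% ± 11.5 (SD, n = 3) in males. Its mean of 300 CPM in hermaphrodites ranked 46th of the 253 rows, and its 556 CPM in males ranked 44th. The highest low-numbered row, mir-82, a bantam-family miRNA, had 249702 CPM in hermaphrodites and 117306 CPM in males. There were 33 low-numbered rows above mir-4936 in hermaphrodites and 25 in males.

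As a share of all miRNA counts, the late-named rows took 0.0797%, 0.0734% and 0.0764% in hermaphrodite replicates 1 to 3. They took 0.154%, 0.163% and 0.168% in male replicates 1 to 3. The widest 95% Wilson interval for a single library, that of male replicate 3, ran from 0.153% to 0.185%, and no male interval reached a hermaphrodite one. The mean share was 2.11-fold higher in males (0.162% ± 0.00731 against 0.0765% ± 0.00314, SD, n = 3 each). The two-sided exact permutation p was 0.1, the smallest that 3 libraries against 3 can give. The low-numbered rows held 88.4% ± 1.15 of counts in hermaphrodites and 61.2% ± 5.86 in males (SD, n = 3 each, exact permutation p = 0.1), the opposite order. A share moves with everything else in its library, so the 2 classes were also set against each other without any scaling between libraries. There were 90.5, 82.0 and 87.5 late-named counts per 100000 low-numbered counts in hermaphrodite replicates 1 to 3, and 238, 253 and 309 in male replicates 1 to 3. The ratio of means was 3.08 with these counts, and 2.44 with mir-35 to mir-42 left out of the low-numbered rows (exact permutation p = 0.1 for each, n = 3 a sex). It was 3.28 without mir-4936. After TMM scaling the direction of the class was not clear: the late-named rows summed to between 856 and 1311 scaled CPM in hermaphrodites and to between 1006 and 1375 in males. The 2 ranges overlapped.

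**Figure D2:**
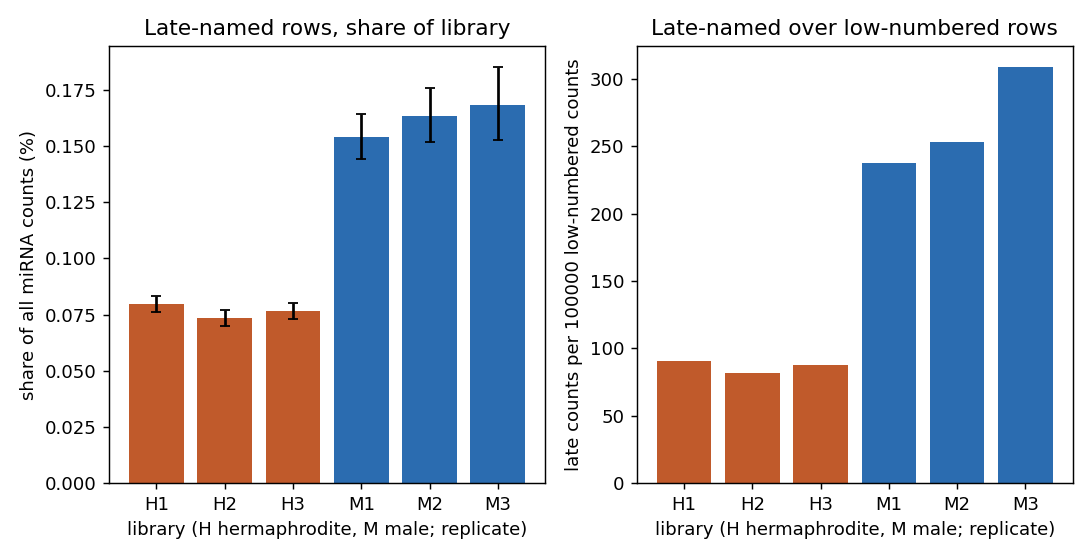
Left, share of all miRNA counts held by the 109 late-named rows (percent) in each library, with bars for the 95% Wilson interval. Right, late-named counts per 100000 counts of rows numbered up to 90, with no scaling between libraries. Hermaphrodite libraries (H1 to H3) lie at 0.0734% to 0.0797% and male libraries (M1 to M3) at 0.154% to 0.168%.

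The sexes were compared row by row with edgeR's quasi-likelihood test on all rows that passed a filter on low counts, with Benjamini-Hochberg adjustment over those 124 rows. Of the 109 late-named rows 17 passed, and these held 95.3% of all late-named counts. Of the 58 low-numbered rows 49 passed. Of the 17, 4 were called higher in male gonads at an adjusted p under 0.05, where 30.6% of all 124 rows were, and 3 were called lower, where 25.0% were. The shares among the late-named rows, 23.5% and 17.6%, lay a little under the background, where 1 row of 17 makes 5.88%. With DESeq2 29.4% of the late-named rows were called lower, against 29.0% of all rows. No difference from the background was read from these shares. The low-numbered rows had 7 called higher and 22 called lower of 49. The median log2 fold change (male over hermaphrodite) was -0.11 for the 17 late-named rows, -0.68 for the 49 low-numbered rows and 0.15 for all 124. Under scaling by library totals these medians were 0.89, 0.33 and 1.18, and 9 late-named rows (52.9%) were called higher and 1 (5.88%) lower, where 55.6% and 16.1% of all rows were. With TMM computed from the low-numbered rows, 5 (29.4%) were called higher and 1 lower, where 50.0% and 10.5% of all rows were. Leaving out 1 library gave 3 to 6 called higher and 1 to 7 called lower. The shares of all rows tested were then 20.2% to 32.6% and 22.8% to 33.3%. Without hermaphrodite replicate 1, 2 of 16 late-named rows tested were called lower, and without hermaphrodite replicate 3, 1 of 16. Without male replicate 3 it was 7 of 24, or 29.2%. Of all rows tested, 24.6%, 22.8% and 33.3% were called lower in those settings. The sexes did not overlap in scaled CPM for 10 of the 17 rows, 5 in each direction, where 67.7% of all tested rows did not. The filter asked for about 7 CPM in 3 libraries. Of the 7 called rows, 5 passed it through the libraries of 1 sex only, mir-1819, mir-1821, mir-1822 and mir-2210 through the males and mir-8196b through the hermaphrodites, so their presence among the tested rows is tied to their difference. The mean of the summed somatic markers was 1.80-fold higher in males, with mir-228 at 2.33 and mir-1 at 0.447 times the hermaphrodite mean, and their part in the calls was not tested.

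**Figure D3:**
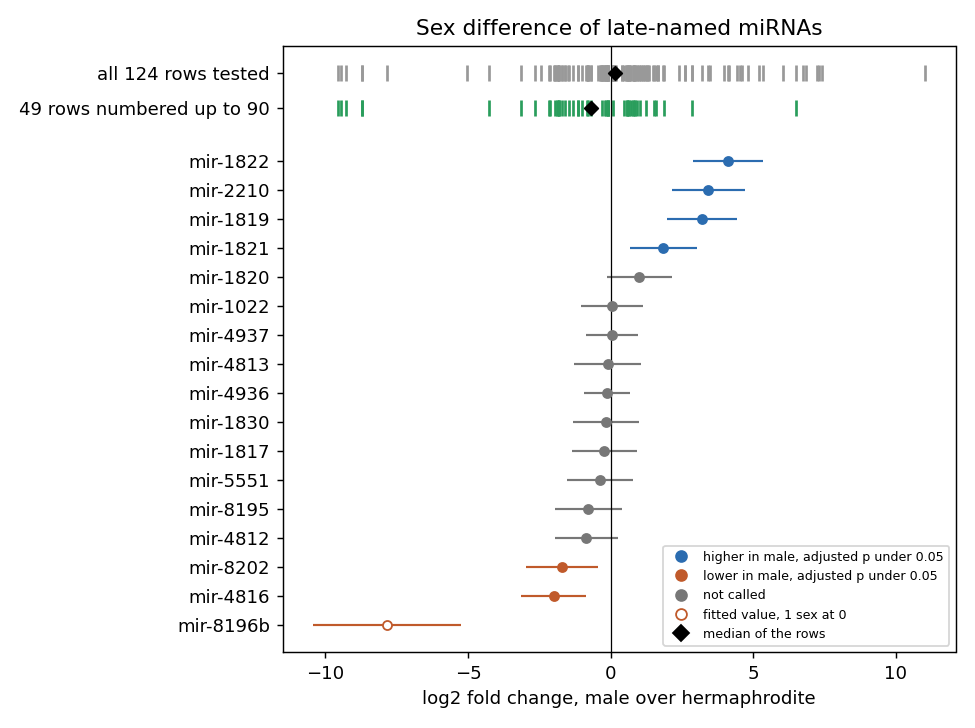
Log2 fold change, male over hermaphrodite, of the 17 late-named miRNAs tested (points, with bars for the 95% interval), above them every low-numbered row tested and all 124 rows tested (ticks, with a diamond at the median). The values run from -7.83 for mir-8196b, a fitted value that is no bound because the male libraries were at 0, to 4.12 for mir-1822.

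The clearest male increase was in mir-1822, whose hairpin lies on chromosome II in an intron of ZK84.2 on the same strand. It stood at 7.58, 8.38 and 2.96 scaled CPM in hermaphrodite replicates 1 to 3 and at 119, 102 and 107 in male replicates 1 to 3. All male libraries were close to each other and above all hermaphrodite libraries, and the mean was 17.3-fold higher. The log2 fold change was 4.12 (SE 0.629, adjusted p 1.28e-09, edgeR). In raw counts this was 14, 11 and 6 against 101, 73 and 32, from male libraries with fewer reads in all.

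The X-linked mir-1819 had 9.75, 5.34 and 7.40 scaled CPM in hermaphrodites and 61.0, 40.6 and 117 in males. Male replicate 3 was highest, and the sexes did not overlap. On the log2 scale the male increase was 3.21 (SE 0.621, adjusted p 1.76e-06, edgeR). Without male replicate 3 it was 2.37, still called.

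For mir-2210, whose hairpin overlaps an exon of ZK593.2 on chromosome IV, the hermaphrodite values were 2.17, 3.81 and 4.94 scaled CPM and the male values 32.9, 12.6 and 83.2. All male libraries were higher, and they differed widely among themselves, with replicate 3 the highest. The log2 fold change was 3.42 (SE 0.655, adjusted p 1.46e-06, edgeR). It was 2.26 without male replicate 3.

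The smallest of the 4 male increases was in mir-1821, on chromosome V within 10 kb of mir-792 and outside protein-coding genes. It stood at 7.04, 11.4 and 6.91 scaled CPM in hermaphrodites and at 48.1, 25.2 and 13.3 in males, the last from 4 raw counts. The male libraries lay above the hermaphrodite ones, the lowest of them only just. On the log2 scale the increase was 1.85 (SE 0.597, adjusted p 0.00488, edgeR). The call was lost without hermaphrodite replicate 1, 2 or 3 (adjusted p 0.0826, 0.0613 and 0.109) and without male replicate 1 (0.123). Of the 4 male-high rows, mir-1819, mir-1821 and mir-1822 carry close numbers but lie on different chromosomes.

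**Figure D4:**
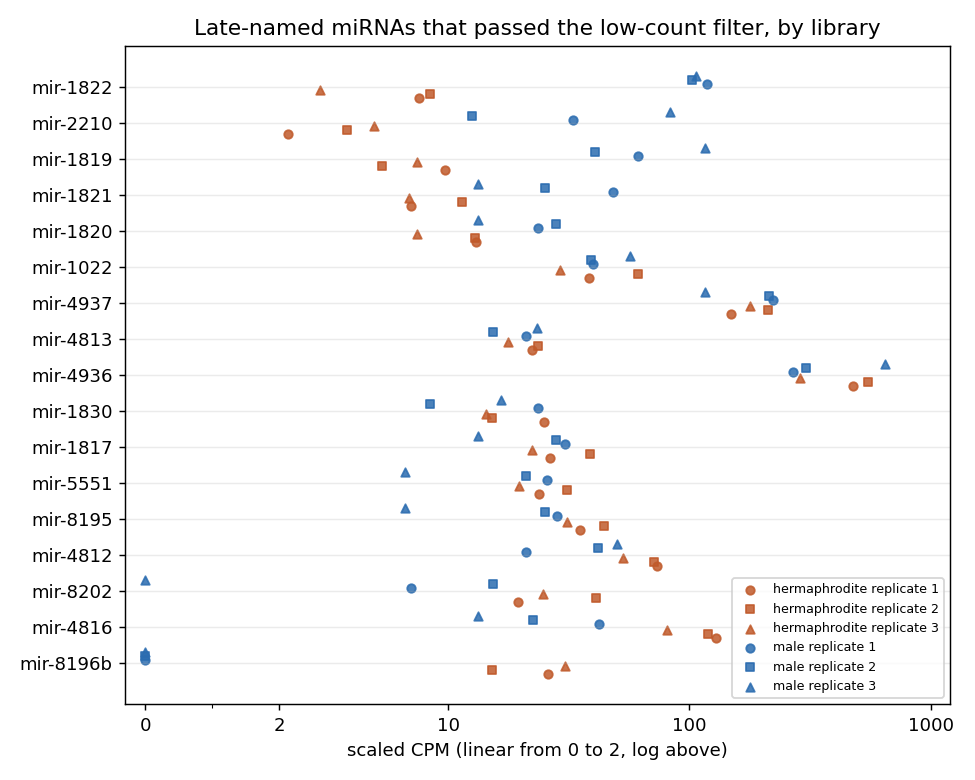
Scaled CPM (horizontal axis, linear from 0 to 2 and log above) of the 17 late-named miRNAs tested, ordered by log2 fold change, with 1 point for each library. Male and hermaphrodite points are apart for mir-1822, mir-2210 and mir-1819 at the top and for mir-4816 and mir-8196b at the bottom, and are mixed for most rows between.

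Among the rows lower in male gonads, mir-4816 was the most abundant. Its hairpin of 65 bases fills an intron of T09B4.2 on chromosome I from end to end, as in a mirtron. It had 128, 119 and 80.4 scaled CPM in hermaphrodites and 42.3, 22.4 and 13.3 in males. The sexes did not overlap, and the hermaphrodite mean was 4.2-fold higher. The log2 fold change was -2.0 (SE 0.583, adjusted p 0.00177, edgeR). Its direction held in all 17 alternatives, but the call was lost under library totals (adjusted p 0.0965) and with TMM from the low-numbered rows (0.106).

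The X-linked mir-8196b, annotated opposite an intron of prx-1 (a peroxisomal protein gene by its name), was listed at 0 in all 3 male libraries. In hermaphrodites it had 48, 20 and 62 raw counts, or 26.0, 15.2 and 30.6 scaled CPM. The hermaphrodite mean was 4.06-fold higher than a limit of 3 counts per male library. That value takes the hermaphrodite counts as exact, so it is not a lower bound. The adjusted p of 4.02e-08 (edgeR) belongs to the fitted log2 fold change of -7.83, which is no bound either. Without hermaphrodite replicate 1 or 3, mir-8196b did not pass the filter. Its lettered relative mir-8196a, on the X chromosome at another place, had 28, 10 and 17 raw counts in hermaphrodites and 3, 1 and 0 in males, and did not pass the filter. Rows that differ by a letter name closely related miRNAs, and how reads matching more than 1 of them were counted is not stated, so the split between them is uncertain. Summed, mir-8196 changed by -4.18 on the log2 scale (SE 0.710, adjusted p 0.00053, edgeR).

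The remaining row called lower was mir-8202, in an intron of unc-77, which encodes a sodium leak channel. It had 19.5, 41.2 and 24.7 scaled CPM in hermaphrodites and 7.04, 15.4 and 0 in males. The sexes did not overlap, although the male values rest on 6, 11 and 0 raw counts. The log2 fold change was -1.71 (SE 0.642, adjusted p 0.0162, edgeR). The call was lost under upper-quartile scaling (adjusted p 0.12), library totals (0.476), TMM from the low-numbered rows (0.253) and no filter (0.0507). It was also lost without hermaphrodite replicate 3 (0.0883) and without male replicate 1 (0.141).

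No call was made for the 2 most abundant members. In scaled CPM mir-4936 had 475, 548 and 288 in hermaphrodites and 268, 305 and 646 in males, with male replicate 3 well above the other males. For mir-4936 the log2 fold change, -0.11 with an SE of 0.414 and an adjusted p of 0.84 in edgeR, had a 95% interval from -0.92 to 0.70. Without male replicate 3 it was -0.87 and was called lower in males (adjusted p 0.0023), while under library totals it was 0.89 and was called higher (0.0368). The direction of mir-4936 is therefore not settled by these libraries. For mir-4937, on chromosome IV outside protein-coding genes, the values were 149, 212 and 178 scaled CPM in hermaphrodites and 222, 213 and 117 in males. Here male replicate 3 was the lowest of the males. The log2 fold change was 0.04 (SE 0.462, adjusted p 0.924, edgeR), with a 95% interval from -0.86 to 0.95. Under library totals mir-4937 was called higher in males at 1.08 (adjusted p 0.0426).

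The intronic mir-4812 lies in piki-1, a phosphoinositide 3-kinase gene on the X chromosome. It had 73.6, 71.6 and 53.3 scaled CPM in hermaphrodites and 21.1, 42 and 49.9 in males. Every male library was lower, by little in male replicate 3, and the log2 fold change of -0.85 (SE 0.562) had an adjusted p of 0.19 in edgeR. It was called lower without male replicate 3 (-1.37, adjusted p 0.00615), with DESeq2 (-1.16, 0.021) and with TMM without the mir-35 family (-1.36, 0.0347). In mir-8195, annotated opposite an exon of tsr-1, the values were 35.2, 44.2 and 31.1 in hermaphrodites and 28.2, 25.2 and 6.66 in males, also without overlap. For mir-8195 a log2 fold change of -0.78 (SE 0.592) had an adjusted p of 0.257 in edgeR, and it was called lower without male replicate 3 (-0.76, adjusted p 0.0409) and with DESeq2 (-1.10, 0.0275). The reverse order was seen for mir-1820, with 13.0, 13.0 and 7.40 scaled CPM in hermaphrodites and 23.5, 28 and 13.3 in males. The lowest male value only just exceeded the highest hermaphrodite one, and the log2 fold change of 1.01 (SE 0.588) had an adjusted p of 0.132. It was called under upper-quartile scaling (0.034), library totals (0.00487) and TMM from the low-numbered rows (0.00364).

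The other 5 tested rows, mir-1022, mir-1817, mir-1830, mir-4813 and mir-5551, overlapped between the sexes. Their hermaphrodite means lay between 18.2 and 42.8 scaled CPM and their male means between 16.2 and 45.2. Log2 fold changes ran from -0.38 for mir-5551 (SE 0.59) to 0.06 for mir-1022 (SE 0.556). Their adjusted p-values in edgeR were 0.626 or higher, and the 95% interval of each of the 5 reached a 2-fold decrease in males. Under library totals mir-1022 was called higher in males at a log2 fold change of 1.11 (adjusted p 0.012), and mir-4813, in an exon of the isocitrate dehydrogenase gene idhg-1, at 0.90 (0.0365). Similarity of the sexes is therefore not shown for these rows.

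Below the filter were 92 late-named rows, 41 of them with at least 1 count and 360 counts in all. Of the 41, 27 were counted in 1 sex only. In hermaphrodites the highest after mir-8196a were mir-8201 in an intron of the linker histone gene hil-2 (13, 8 and 7 raw counts, with 5, 0 and 3 in males) and mir-4938 (8, 12 and 6, with 0, 0 and 1). They were followed by mir-4934 (7, 7 and 8, with 4, 3 and 1) and mir-2219 (3, 4 and 11, with 1, 0 and 0). At male depth these differences in raw counts were not detectable for mir-4938 and mir-2219, whose hermaphrodite means were under 3 male counts. In males the highest were mir-8191, mir-2221, mir-4925 and mir-4923a. For mir-8191 the male raw counts were 5, 0 and 14, so replicate 3 set its level, against 2, 0 and 1 in hermaphrodites. The X-linked mir-2221 had 8, 9 and 1 against 0, 0 and 1, mir-4925 had 9, 7 and 0 against 0, 0 and 1, and mir-4923a had 4, 4 and 1 against 0, 0 and 0. The male mean of mir-4923a was 2.53-fold higher than a limit of 3 counts per hermaphrodite library. That value takes the male counts of 4, 4 and 1 as exact, so it is not a lower bound. No fold is given for the other 3, which had 1 to 3 hermaphrodite counts in all.

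With no filter, 58 late-named rows were tested among 181. Then 8 were called higher in males, where 24.9% of all rows were, and 3 lower, where 17.1% were. The additional male-high rows were mir-2221, mir-4923a, mir-4925 and mir-8191, with adjusted p-values of 0.000684, 0.00291, 0.00196 and 0.025 in edgeR. The row mir-8196a was then called lower (0.0392), while mir-8202 no longer was.

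Position was read from the WBcel235 annotation, which matched 105 of the 109 late-named rows to 1 gene each. Of these, 48 hairpins lay outside protein-coding genes, 39 in introns and 4 across exons of a gene on the same strand, and 14 opposite a protein-coding gene. At least 1 count was found for 26 of 48, 22 of 39, 2 of 4 and 8 of 14, or 50.0% to 57.1% of each class. The rows outside genes held 69.7% of late-named counts, mostly through mir-4936 and mir-4937. Late-named hairpins that fill an intron, with both ends within 5 bases of the intron's ends, numbered 7. Apart from mir-4816 with 612 counts in all, these were mir-4926 in ari-1.3 with 2 counts, mir-4924 in T11G6.5 with 1, and mir-1019 in dyf-5, mir-1020 in T16G12.1, mir-4920 in sph-1 and mir-4927 in M01F1.4, each with none. The low-numbered mir-62 also fills an intron, of 58 bases in ugt-50, and had no count. The hairpin of mir-1828 lies in an intron of pash-1, which encodes the Drosha partner Pasha, and had 5 counts in all.

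Another miRNA gene lay within 10 kb on the same strand for 13 of the late-named rows, against 30 of the 58 low-numbered rows. Counts of neighbours often differed widely. In piki-1, mir-4812 had 338 counts in hermaphrodites and 63 in males, and mir-1829c 16 and 8. On the X chromosome mir-1819 had 40 and 116 and the adjacent mir-2212 none. In the X-linked group that holds mir-1018, which had 548 counts in hermaphrodites and 8219 in males, mir-4925 had 1 and 16, mir-4923a 0 and 9, and mir-4921 none. Of the 19 late-named rows on the X chromosome, 12 were counted and 4 tested, of which mir-1819 was called higher and mir-8196b lower. The hairpin of mir-8203 lies opposite mir-786 and was at 0, where mir-786 had 332 and 22 counts.

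The ranges of numbers differed in how many rows were counted. From mir-1817 to mir-1833, 14 of 16 rows had a count, 6 were tested and 3 were called. From mir-2207 to mir-2221, 5 of 16 had a count and mir-2210 alone was tested. Between mir-4805 and mir-4816, 4 of 8 were counted and 3 tested. The range from mir-4920 to mir-4938 held 55.3% of late-named counts, although only mir-4936 and mir-4937 of its 19 rows were tested. Between mir-5545 and mir-5553, 5 of 9 were counted and mir-5551 was tested. None of the 6 rows from mir-5592 to mir-5595 was counted. From mir-8186 to mir-8212, 17 of 29 rows had a count and 3 were tested, of which mir-8196b and mir-8202 were lower in males. The sole row of a still higher number, mir-12134, had none. Rows with a letter or copy suffix were counted for 10 of 23, and the others for 48 of 86. A count of 0 in these files was not read as absence of the RNA, and its cause was not tested. The low-numbered mir-46, mir-55b, mir-62 and mir-84 were also at 0 in all libraries. The rows mir-80 and mir-86 had 3 counts or fewer in each.

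**Figure D5:**
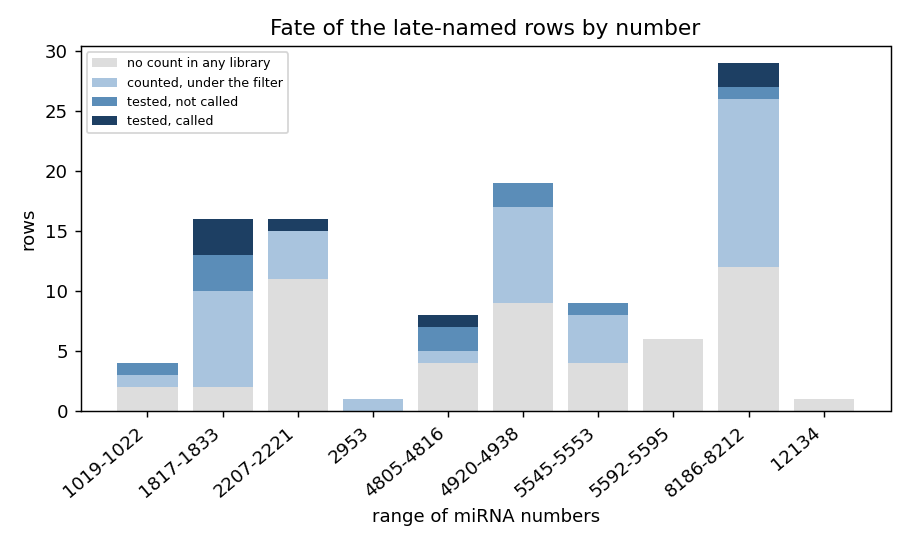
Number of late-named rows (vertical axis) in each range of miRNA numbers, split into rows with no count, rows counted but under the filter, rows tested and not called, and rows called at an adjusted p under 0.05. The called rows are 3 in the range from mir-1817 to mir-1833, 1 each in the ranges of mir-2210 and mir-4816, and 2 in the range from mir-8186 to mir-8212.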

How the data were processed

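Small RNA libraries were made from total RNA with the TruSeq Small RNA kit, per the labels' protocols. The authors deposited raw read counts per miRNA for each library. They also deposited a table of normalized values, used here as a signal, which equalled the counts divided by 1 size factor per library and served only as a check. Bowtie2, HTSeq and DESeq2 are listed per the submitters' processing notes, with no role or version. The build ce10 is named in the file names. Trimming, strand and multi-mapping reads are not given in the sources used here.

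Counts were tested with edgeR 4.0.16 in R 4.3.3: filterByExpr (minimum count 10), TMM, estimateDisp and glmQLFit with robust settings, glmQLFTest, two-sided, with no covariate. SEs were derived from the fitted change and its F value, and 95% intervals from the SE. Shares were compared by exact permutation (scipy 1.17.1, Python 3.11.15). DESeq2 1.42.0 and limma-voom 3.58.1 were alternatives, besides 5 scalings, 2 filters, a replicate block, summed copies and leaving out each library. Detection was recomputed at a common depth from the hypergeometric expectation. The code was tested on simulated data. Named were all members tested, up to 5 untested members with the most counts in each sex, and the top row of each class. Members, lists and tests were chosen with earlier results of these data known, and the ratio to low-numbered rows was added after seeing the data. Library totals are given in the report. Gene positions come from WBcel235 (Ensembl 115), matched by name. It differs from ce10, so no coordinate is given. Mature sequences were not used here.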

Additional observations from a re-analysis of the deposited data

How the results depend on the processing

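Over the scalings, filters, tools and left-out libraries, mir-1819, mir-1822 and mir-2210 kept direction and call in all 17 alternatives. The row mir-8196b did so in all 14 that could test it. These rows passed the filter through the libraries of 1 sex only, and the alternatives share libraries. Their agreement is therefore no independent support. The number of late-named rows called higher in males was 9 under library totals and 8 with no filter, and 3 to 6 with a library left out. Of all rows tested, 55.6%, 24.9% and 20.2% to 32.6% were called higher in those settings. The number called lower was 1 under library totals, 1 with TMM from the low-numbered rows and 5 with DESeq2. Of all rows tested, 16.1%, 10.5% and 29.0% were called lower in those settings. Leaving out a library gave 1 to 7, the lowest without hermaphrodite replicate 3 and the highest without male replicate 3. The share of all rows called lower was then 22.8% to 33.3%. With the replicate number as a block, 4 were higher and 3 lower, where 25.0% and 21.8% of all rows were. Same-numbered libraries did not deviate together (correlations -0.13, -0.020 and -0.25), so the numbers were not read as pairs. The median log2 fold change was -0.44 with RLE, 0.89 under library totals, -0.61 with TMM without the mir-35 family and 0.80 with TMM from the low-numbered rows. The ratio of mean shares stayed between 2.07 and 2.17 with a library left out. Detection moved to 25 rows in hermaphrodites and 29 in males at 1 CPM, to 46 and 42 with any count, and to 20.8 and 27.6 at the common depth.

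Of the 10 rows tested and not called, 9 changed sign in at least 1 alternative, and mir-1820 stayed positive (0.48 to 2.08). Positive log2 fold changes of mir-1022 and mir-4937 became -0.23 and -0.30 with RLE, -0.39 and -0.47 with TMM without the mir-35 family, and -0.25 and -0.29 with DESeq2. They were -0.0044 and -0.042 with at least 10 counts in 3 libraries, and -0.068 and -0.13 with copies summed. With a library left out they ran from -0.38 to 0.087 and from -0.41 to -0.039, and mir-4936 ran from -0.87 to 0.067. Negative values of mir-1817, mir-1830, mir-4813 and mir-4936 became 0.033, 0.010, 0.10 and 0.16 with upper-quartile scaling, 0.86, 0.82, 0.90 and 0.89 under library totals, and 0.69, 0.79, 0.82 and 0.80 with TMM from the low-numbered rows. Under those last 2 settings mir-4812 was 0.17 and 0.093, mir-5551 0.69 and 0.54, and mir-8195 0.29 and 0.14. Apart from the scalings' own construction, the cause was not tested. Male depth limits rows under about 12 CPM.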
